A study of Mus musculus with 12 samples.

Results

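The MS4A family genes Ms4a4a, Ms4a4b, Ms4a4c, Ms4a6b, Ms4a6c, Ms4a6d and Ms4a7 were followed across 12 libraries of mouse macrophages. They are 7 of the 43278 gene symbols in the table, chosen by name from a list drawn up with values of these same libraries in view and with no stated threshold. Their levels by group are therefore a description, and their p-values are not independent evidence that the family responds. The cells were thioglycolate-elicited peritoneal macrophages (PMφs) of wild-type C57BL/6J mice of 8 to 12 wk. Thioglycolate is an irritant that draws monocytes into the peritoneal cavity, where they become macrophages, and here it was given at 4% and cells were lavaged after 4 days and left to adhere for 18 h. According to the methods, cells of up to 10 male and female mice were pooled before culture, so a library stands for a pool and not for a mouse. The sex transcripts given below did not show both sexes in every library. There were 4 groups of 3 libraries, which were control cells, cells loaded for 24 h with oxidized low-density lipoprotein (oxLDL, 100 µg/ml), cells stimulated with LPS at 10 ng/ml, and cells that had both. LPS is the bacterial ligand of TLR4, and the length of its treatment is not stated for these libraries. The comparisons ask what LPS and a load of oxLDL did to these genes, and whether the load altered the response to LPS.

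MS4A genes encode tetraspan membrane proteins that sit beside immune receptors and tune their signaling or their traffic. The best known are CD20 (Ms4a1) of B cells and the β-chain of the IgE receptor (Ms4a2) of mast cells. In macrophages, MS4A4A associates with the β-glucan receptor dectin-1, and variants near the human MS4A4A and MS4A6A genes are linked to soluble TREM2 and to Alzheimer disease. The mouse has several copies related to the human MS4A4A and MS4A6A genes, told apart by the last letter of their symbols.

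On GRCm38 with the GENCODE annotation the members lay on chromosome 19 within 283.8 kb, from Ms4a7 on the minus strand (chr19:11321039-11336146) to Ms4a6d on the minus strand (chr19:11586604-11604849). Between them, all on the plus strand, lay Ms4a4a (chr19:11375523-11392790), Ms4a4c (chr19:11404770-11427246), Ms4a4b (chr19:11443553-11467055), Ms4a6c (chr19:11469366-11482192) and Ms4a6b (chr19:11516512-11531256). RefSeq gave start site windows for 6 of the 7 (GRCm38.p6), and 3 of them are shown because Ms4a4c and Ms4a4b, neighbours that were near 0 in control libraries and higher with LPS, held the same motif at nearly the same place, and Ms4a4a held the other motif found. The RefSeq start of Ms4a4c lies inside the gene as GENCODE draws it. Each line is the 250 bases before the start, plus strand, 5′ to 3′, and capitals mark a motif.
Ms4a4c, chr19:11407411-11407660: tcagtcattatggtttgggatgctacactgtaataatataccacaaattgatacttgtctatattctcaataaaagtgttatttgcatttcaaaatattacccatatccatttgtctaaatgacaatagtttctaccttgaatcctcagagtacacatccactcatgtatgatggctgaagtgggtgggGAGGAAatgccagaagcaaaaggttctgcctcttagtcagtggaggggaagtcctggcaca
Ms4a4b, chr19:11443308-11443557: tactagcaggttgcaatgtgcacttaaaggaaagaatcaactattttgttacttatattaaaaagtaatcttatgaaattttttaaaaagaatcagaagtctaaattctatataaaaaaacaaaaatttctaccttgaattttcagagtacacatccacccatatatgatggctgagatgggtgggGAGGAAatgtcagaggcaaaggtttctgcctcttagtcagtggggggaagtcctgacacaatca
Ms4a4a, chr19:11375238-11375487: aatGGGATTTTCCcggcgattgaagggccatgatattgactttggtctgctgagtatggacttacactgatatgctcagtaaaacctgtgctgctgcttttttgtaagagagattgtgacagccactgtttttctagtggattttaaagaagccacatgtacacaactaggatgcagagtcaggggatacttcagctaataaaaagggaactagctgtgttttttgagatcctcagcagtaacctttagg
The capitals GAGGAA in the first and second windows are a core of the PU.1 motif, PU.1 being the factor that sets macrophage identity. They lay 61 to 56 bases before the start of Ms4a4c and 64 to 59 bases before that of Ms4a4b, and 23.3% of 32851 promoters of the same length held this motif on either strand. In Ms4a4a the capitals are an NF-κB motif 247 to 238 bases before the start, found in 7.25% of promoters. The core of the interferon-stimulated response element, GAAANN followed by GAAA, was in none of the 7 windows of the 6 genes (2.98% of promoters). It was searched on both strands, these letters were simply not in these windows, and a match describes the letters only.

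Values are the deposited normalized counts, which are read counts per gene divided by 1 factor per library and rounded. Their sum was 17152972 to 17709731 in libraries without LPS and 22071853 to 26384551 in libraries with LPS, and the factors read from their spacing imply 16725738 to 26178915 reads on genes. All 9 macrophage markers found in the table, of 10 listed, were at 10 or more in every library, among them Lyz2 and Cd68. The T cell list of 8 genes summed to 17157 to 21152 without LPS and 7655 to 9340 with LPS, nearly all of it Il7r, while Cd3d, Cd3e, Cd3g and Cd8a never passed 2. In the B cell list of 7 genes, which summed to 1503 to 2359 without LPS and 831 to 1366 with LPS, Cd22 led. The NK cell list of 5 genes summed to 5 to 9 without LPS and to 71 to 156 with LPS, most of it Klrk1, while Ncr1 never passed 1. Sums of the neutrophil list of 7 genes were 39 to 61 and 81 to 259, with Ly6g at 0 throughout, those of the dendritic cell list of 6 genes 54 to 89 and 82 to 101, and those of the mast cell list of 7 genes 53 to 65 and 36 to 120. The 6 genes of large peritoneal macrophages, the resident type, summed to 527 to 776 without LPS and 755 to 2036 with LPS. This rise lay mainly in Cxcl13 (163 to 232 in control and 502 to 1179 in LPS libraries) and Timd4 (4 to 16 and 152 to 230). Gata6 of the same list was at 186 to 374 in control and 112 to 424 in LPS libraries. The 8 genes of mesothelial cells and fibroblasts summed to 5483 to 24184 without LPS and 5029 to 30109 with LPS. The part of these cells in the members' changes was not tested. In bulk RNA fewer cells of a type and less RNA per cell cannot be told apart. The female transcript Xist and 4 Y-linked genes differed between the pools. Replicate number 2 libraries had a sum of 0 to 2 for the Y-linked genes in every group and number 3 libraries 1620 to 1783. Replicate number 1 libraries went from 3009 to 3138 without LPS to 1004 to 1023 with LPS, with Xist at 1 to 2 without LPS and 3812 to 6331 with LPS. Number 2 libraries thus showed almost no Y-linked transcripts, and number 1 libraries without LPS almost no Xist. Number 1 libraries with and without LPS therefore did not hold the same mix of male and female cells, and the members' LPS comparisons are given also without them. Blocked LPS fits with all numbers in pair these libraries all the same.

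In resting PMφs, the order of levels per kb of exon put Ms4a6d first. Ms4a6d, a partner of the complement receptor VSIG4, had 1006.5 ± 65.0 normalized counts per kb in control libraries (SD, n = 3), above every other Ms4a gene in each library. Ms4a7, a marker of mature tissue macrophages, followed the non-member Ms4a8a at 269.9 ± 112.1 per kb, and those genes overlapped. Ms4a6c had 100.3 ± 23.7 per kb and Ms4a4a 47.0 ± 28.9, again with overlap. The other members were low, with Ms4a6b at 11.7 ± 7.14 per kb, Ms4a4c at 3.81 ± 2.70 and Ms4a4b at 0.266 ± 0.366. Of all normalized counts on Ms4a genes, 45.2% ± 5.32 fell on Ms4a6d and 30.0% ± 7.40 on Ms4a7 in control libraries, a share that is not per length.

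LPS changed this order. Ms4a6d stayed first at 9705.5 ± 1628.8 normalized counts per kb, and Ms4a4c moved from the eighth to the second place at 4094.4 ± 981.9 per kb. Ms4a6c came next at 2714.8 ± 579.4 per kb, overlapping Ms4a4c, and Ms4a4a had 916.3 ± 623.3 per kb. The share of Ms4a counts on Ms4a4c went from 0.178% ± 0.142 to 20.7% ± 1.83 and that on Ms4a6c from 5.24% ± 0.680 to 16.2% ± 0.807. The share on Ms4a7 went from 30.0% to 6.34% ± 0.554, although its own level did not go down.

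**Figure D1:**
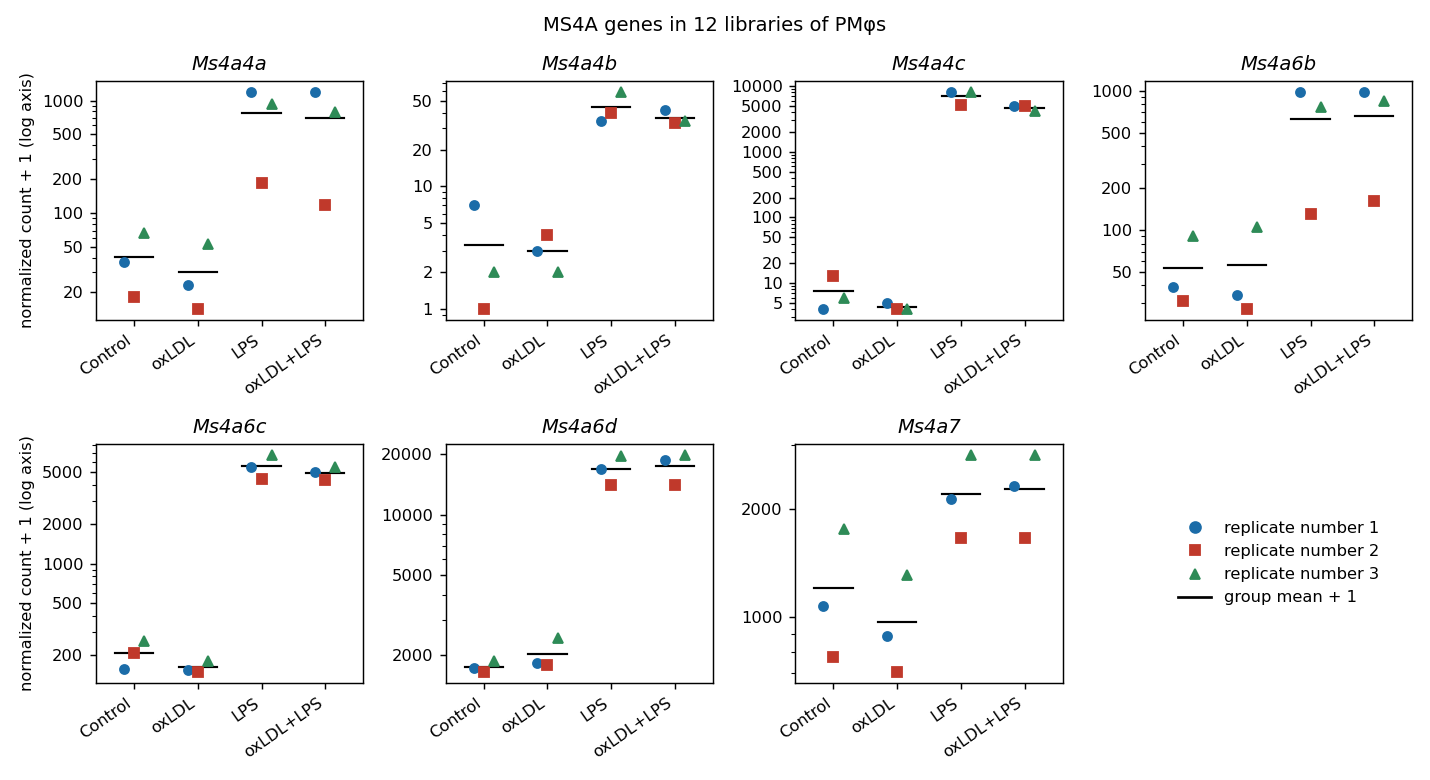
Normalized count plus 1 on a log axis for the 7 MS4A genes in the 4 groups, each with its own scale. Symbols are the 3 replicate numbers and bars the group mean. Ms4a7 overlaps between libraries with and without LPS and the others do not, and number 2 lies low for Ms4a4a and Ms4a6b with LPS. The share of all genes without overlap is not given here, and the 31.4% of genes called higher with LPS is a different measure.

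All 7 members were called higher with LPS than in control PMφs, on a background of 31.4% of 13023 genes tested called higher (limma, adjusted p under 0.1). With so many genes called, and with the list chosen from these libraries, the count is read as a description. Fold changes below are on the scale of log2 of the normalized count plus 1. The median over the members was 4.06 beside -0.00 over all genes tested.

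Ms4a4c, a gene often listed among interferon-induced genes of monocytes, had the largest change. It was at 3, 12 and 5 normalized counts in control libraries 1 to 3 and at 8164, 5184 and 8160 with LPS. Every LPS library was thus far above every control library, and the means differed 1075-fold, on 20 normalized counts in the control libraries together. Its log2 fold change was 10.01 (SE 0.41, adjusted p = 1.07e-06, limma). It passed the filter on low values only through the LPS libraries, so that it had to differ.

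Ms4a6c and Ms4a6d belong to the copies related to human MS4A6A. Ms4a6c was at 157, 206 and 254 in control libraries and 5479, 4423 and 6794 with LPS, a log2 fold change of 4.76 (SE 0.21, adjusted p = 1.50e-06, limma). Ms4a6d was at 1723, 1647 and 1869 in control libraries and 16837, 14014 and 19666 with LPS, a log2 fold change of 3.26 (SE 0.13, adjusted p = 1.09e-06, limma). Neither gene's groups overlapped, and replicate numbers gave changes of 4.42 to 5.12 for Ms4a6c and of 3.09 to 3.39 for Ms4a6d. The increase of Ms4a6d was thus the most even among the pools and, starting from the highest level, added the most counts.

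Ms4a4a, the dectin-1 partner, and Ms4a6b rose in every number but unevenly. Ms4a4a was at 36, 17 and 65 in control libraries and at 1192, 185 and 921 with LPS, a log2 fold change of 4.06 (SE 0.74, adjusted p = 0.00233, limma). Ms4a6b was at 38, 30 and 89 in control libraries and at 977, 129 and 766 with LPS, a log2 fold change of 3.27 (SE 0.76, adjusted p = 0.00769, limma). In both genes library 2 with LPS lay far under libraries 1 and 3, yet above every control library.

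Ms4a4b, first described in T cells as a partner of the receptor GITR (Tnfrsf18), was at 6, 0 and 1 in control libraries and at 33, 39 and 58 with LPS. Its log2 fold change was 4.16 (SE 0.70, adjusted p = 0.00164, limma), and like Ms4a4c it passed the filter only through the LPS libraries. The level stayed low, at 4.94 ± 1.49 normalized counts per kb, the tenth among Ms4a genes. Tnfrsf18 itself never passed 15 in any library, and the T cell genes Cd3d, Cd3e, Cd3g and Cd8a stayed at 2 or under, as above. Lck, the T cell kinase, was however at 16 to 18 in control libraries and 102 to 234 with LPS, and its part in the level of Ms4a4b was not tested.

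Ms4a7 changed least. It was at 1077, 777 and 1752 in control libraries and at 2121, 1657 and 2810 with LPS, so that control library 3 lay above LPS library 2. The log2 fold change was 0.92 (SE 0.30, adjusted p = 0.0346, limma), and each replicate number was higher with LPS, by 0.68 to 1.09. This call hung on the scaling. With every library set to the same total, which moves the median of all genes by -0.48, Ms4a7 had 0.43 and adjusted p = 0.224, while the other 6 members were still called higher. Under that scaling 23.5% of the genes called were higher with LPS, against 50.9% as deposited.

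Without number 1 in either group, 6 of the members were still called higher, as were 3715 of the 13023 genes, and Ms4a7 was not (0.89, adjusted p = 0.171, limma). With the replicate block on the same libraries Ms4a7 was called as well (adjusted p = 0.000822, limma), as were 4455 genes higher. With so few libraries left, that p-value leans on the variance trend over all genes. Without number 1 and without the block, Ms4a6b had 2.58 (adjusted p = 0.0830, limma), Ms4a4a 3.59 (0.0334), Ms4a4c 9.52, Ms4a6c 4.58, Ms4a6d 3.24 and Ms4a4b 5.10. The call of Ms4a7 was also lost without control library 2 (0.64, adjusted p = 0.102) and without LPS library 3 (0.72, adjusted p = 0.111). With the replicate number as a block all 7 were called, among 34.6% of genes called higher.

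The low values of pool 2 with LPS set Ms4a4a and Ms4a6b apart from their neighbours. Number 2 was also the lowest without LPS in both genes, at 17 and 30 in control libraries. In number 2, Ms4a4a was 2.31 below the lower of numbers 1 and 3 on the log2 scale with LPS and 2.74 below it with oxLDL and LPS. For Ms4a6b these gaps were 2.56 and 2.39. Of 12786 genes with at least 10 in 3 of the 6 LPS libraries, 69 (0.54%) lay at least 1 log2 below both others in both groups and 16 (0.125%) at least 2 below, a description made after the values were seen. The other 5 members had gaps between -0.25 and 0.65, the negative ones meaning that number 2 was not the lowest. Number 2 was the pool with Y-linked genes at 0 to 2, and the part of its sex or origin in this pattern was not tested. Without number 2 the change with LPS was 4.41 for Ms4a4a and 3.87 for Ms4a6b. Within numbers 1, 2 and 3 the changes were 5.01, 3.37 and 3.80 for Ms4a4a. For Ms4a6b they were 4.65, 2.07 and 3.09. Number 1, whose libraries differed in sex transcripts between LPS states, had the largest change in both genes.

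In PMφs loaded with oxLDL, LPS again raised all 7 members, on a background of 28.2% of 12900 genes called higher, or 32.0% with the replicate block. Ms4a4c went from 4, 3 and 3 to 5056, 4911 and 4126 normalized counts, a log2 fold change of 10.09 (SE 0.16). Ms4a6c went from 154, 148 and 181 to 4969, 4334 and 5497 (4.93, SE 0.12). Ms4a6d went from 1829, 1790 and 2442 to 18687, 14010 and 19930 (3.12, SE 0.17). Ms4a4c passed the filter only through the libraries with LPS, so that it had to differ. The groups of Ms4a6c and Ms4a6d did not overlap, and their adjusted p ranged up to 0.00156 over all the alternatives tried.

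The unevenness of Ms4a4a and Ms4a6b recurred in the loaded cells, with number 2 lowest with and without LPS. Changes within numbers 1, 2 and 3 were 5.68, 3.09 and 3.91 for Ms4a4a. Those of Ms4a6b were 4.85, 2.585 and 3.00, so number 1 again had the largest. Ms4a4a went from 22, 13 and 52 to 1181, 118 and 795 (4.23, SE 0.88, adjusted p = 0.00614, limma). Ms4a6b went from 33, 26 and 105 to 982, 161 and 846 (3.48, SE 0.78, adjusted p = 0.00849, limma). Ms4a4b went from 2, 3 and 1 to 41, 32 and 33 (3.65, SE 0.40), again tested only through the libraries with LPS.

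Ms4a7 went from 889, 705 and 1311 to 2304, 1656 and 2824, this time without overlap, with a log2 fold change of 1.24 (SE 0.26, adjusted p = 0.00703, limma) and of 0.85 under equal totals (adjusted p = 0.0277). Without number 1 all 7 were still called, as 3094 of the 12900 genes were in the same direction, with Ms4a6b nearest to the threshold at 2.79 (adjusted p = 0.0986).

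**Figure D2:**
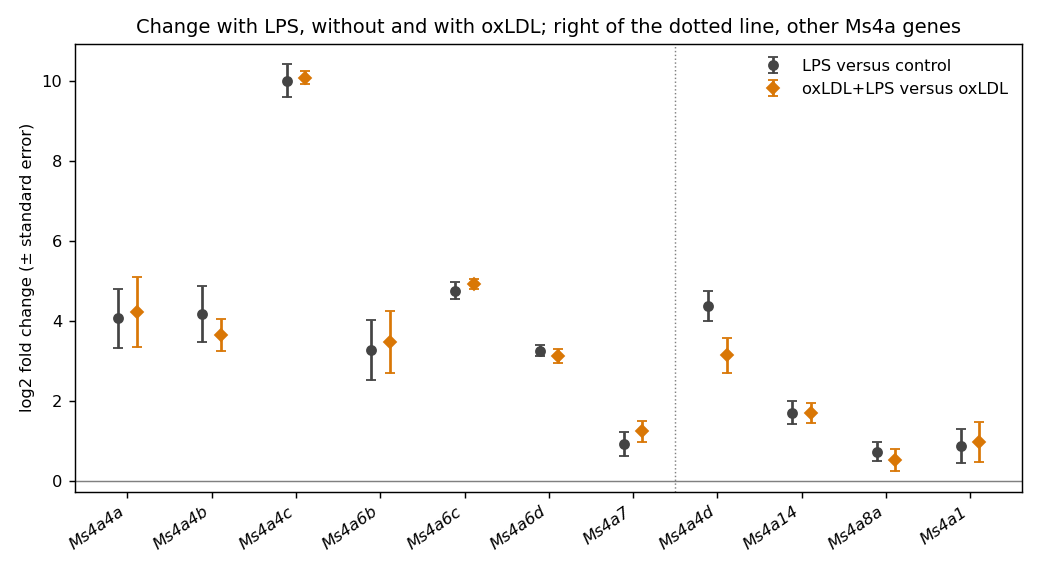
Log2 fold change with LPS (vertical axis, error bars 1 standard error, n = 3 per group) of the 7 members and 4 other Ms4a genes, without oxLDL (circles) and with oxLDL (diamonds). Ms4a4c stands near 10 in both, and the error bars of circle and diamond overlap for each of the 7 members. Those of Ms4a4d, which was tested only through the libraries with LPS, do not overlap.

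Whether oxLDL altered the response to LPS was tested as an interaction over all 12 libraries. None of the 7 members was called, and neither was any of 13482 genes (limma, 418 with an unadjusted p under 0.05, and 0 called and 967 under 0.05 with the replicate block). The estimates for members ran from -0.52 (SE 0.84) for Ms4a4b to 0.32 (SE 0.45) for Ms4a7. For Ms4a6d, the most precise, it was -0.14 (SE 0.23). Ms4a4a and Ms4a6b were the least precise without the block, and with it their standard errors were 0.58 and 0.64.

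oxLDL without LPS left the members near their control levels. Ms4a4b and Ms4a4c were under the filter in these 6 libraries, and among the 5 tested members none was called, as none of 12751 genes was (0%, limma, 381 with an unadjusted p under 0.05). With the replicate block 4.71% of genes were called, 2.92% of genes as lower, and Ms4a7 was the one member among them (-0.28, SE 0.06, adjusted p = 0.0304, limma). Ms4a7 was lower with oxLDL in 3 of 3 numbers, by 0.28, 0.14 and 0.42, while the groups overlapped, from 705 to 1311 against 777 to 1752. Here and below, how many of all genes went the same way in 3 of 3 numbers was not counted. The blocked call of Ms4a7 was lost in the blocked fits without number 1 or number 2.

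Ms4a4a and Ms4a6c were also lower in 3 of 3 numbers, with mean differences of -0.46 (SE 0.61) and -0.33 (SE 0.19), and were not called with the block either (adjusted p = 0.310 and 0.162, limma). Ms4a6d was higher in 3 of 3, by 0.20 (SE 0.13, adjusted p = 0.116 with the block, limma). Ms4a6b was lower in 2 of 3 (-0.05, SE 0.59). The sizes of these differences were small beside those with LPS.

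In the presence of LPS, Ms4a4c was the member with the clearest difference with oxLDL. Its values with oxLDL and LPS, 5056, 4911 and 4126, all lay under the lowest LPS library, at 5184. How many of all genes were separated in this way was not counted, so the separation is a description. The log2 difference was -0.58 (SE 0.20), with adjusted p = 0.698 in the limma fit without the block, in which none of 12786 genes was called (0%, 890 with an unadjusted p under 0.05). With the replicate block Ms4a4c was called (adjusted p = 0.0446), as were 13.2% of all genes, 8.74% of all genes as lower. The differences within numbers were -0.69, -0.08 and -0.98, so number 2 hardly took part. Without number 2 the blocked value was -0.84 (adjusted p = 3.14e-07, limma), in a fit that called 2755 of the 12786 genes. With a number left out, few libraries remain to estimate a gene's own variance. Such p-values lean on the variance trend over all genes. Blocked fits without number 1 or without number 3 called 0 genes, Ms4a4c included, with 1599 and 1530 genes at an unadjusted p under 0.05, so the gain and the loss were not particular to Ms4a4c.

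The other 6 members were not called with or without the block. Ms4a4a and Ms4a6c were lower in 3 of 3 numbers, by means of -0.29 (SE 1.00) and -0.16 (SE 0.17), and Ms4a6b was higher in 3 of 3, by 0.16 (SE 0.93). Ms4a6d (0.06, SE 0.19) and Ms4a7 (0.04, SE 0.25) differed in number 2 by less than 0.01. Ms4a4b had -0.26 (SE 0.28).

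**Figure D3:**
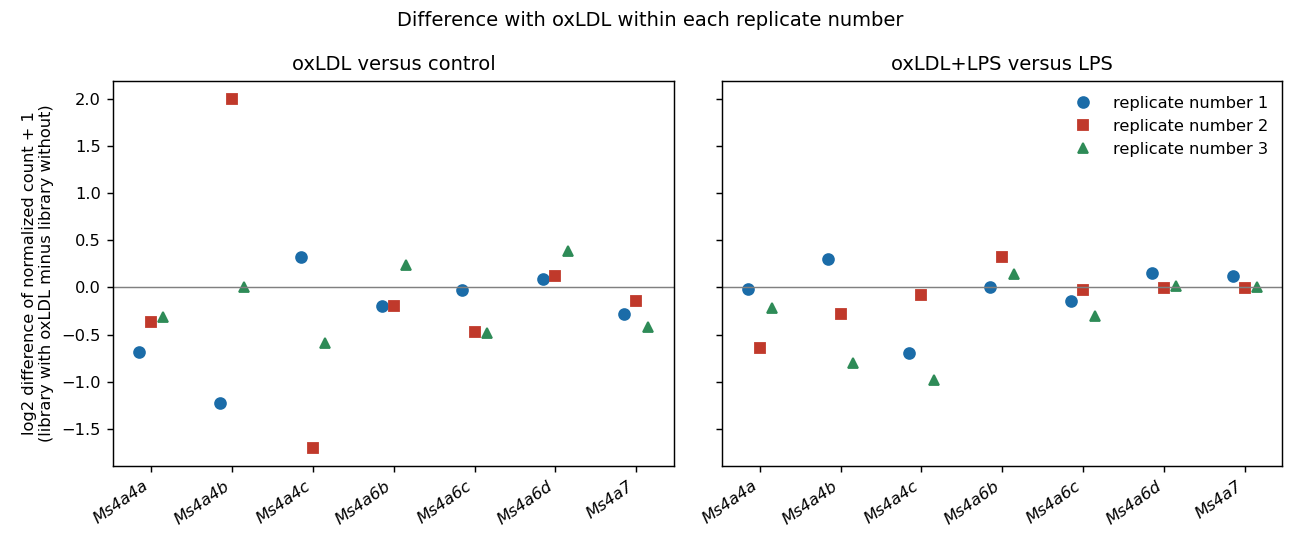
Log2 difference of the normalized count plus 1 between libraries with and without oxLDL of the same replicate number (vertical axis), for the 7 members without LPS (left) and with LPS (right). Points are the 3 numbers; with LPS, Ms4a4c lies under 0 in all 3, at -0.69, -0.08 and -0.98, and Ms4a4b without LPS scatters widely because its counts are at most 6.

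The other Ms4a symbols of the table were 12, of which 8 never passed 2 in any library, among them the mast cell gene Ms4a2, and 6 were at 0 in all 12 libraries. Ms4a4d, a copy next to Ms4a6b, was at 1, 1 and 1 in control libraries and at 37, 34 and 52 with LPS (4.37, SE 0.37). It passed the filter only through the libraries with LPS, so that it had to differ. In loaded cells Ms4a4d went from 5, 2 and 2 to 23, 44 and 33 with LPS (3.14, SE 0.44). Its interaction was -1.23 (SE 0.53, unadjusted p = 0.0398, limma) and was not called. Ms4a14 was at 43, 69 and 101 and rose to 222, 208 and 232 (1.70, SE 0.29). Ms4a8a, described in alternatively activated macrophages, went from 385, 748 and 610 to 811, 1114 and 879 and was called higher (0.72, SE 0.24, adjusted p = 0.0358, limma), a call lost under equal totals (0.24, adjusted p = 0.405).

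Ms4a1, the CD20 gene, had 10, 6 and 12 in control libraries and 19, 11 and 24 with LPS and was called with the block alone (0.86, adjusted p = 0.121 without it and 0.0515 with it, limma). Without number 1 and without the block Ms4a1 had 0.86 (adjusted p = 0.291, limma). Of these 4 genes, Ms4a8a and Ms4a14 were lower with oxLDL and LPS than with LPS in all numbers, both by a mean of -0.27, and with the block Ms4a8a was called (adjusted p = 0.0689, limma) and Ms4a14 was not (0.184). Tmem176a and Tmem176b, relatives of the family on chromosome 6 whose exons overlap each other, showed no call with LPS without the block (0.71 and 0.40, adjusted p = 0.254 and 0.446). Both were called with it (adjusted p = 0.0246 and 0.0548, limma). Without number 1 and without the block they had 0.48 and 0.19 (adjusted p = 0.178 and 0.381, limma). With oxLDL and LPS against LPS they had -0.78 and -0.55 and were called with the block alone (adjusted p = 0.0573 and 0.0979, limma). The blocked fit called 8.74% of all genes lower in this comparison. Within numbers 1, 2 and 3 the differences were -1.01, 0.00 and -1.32 for Tmem176a. For Tmem176b they were -0.94, 0.13 and -0.83, so number 2 was not lower in either gene.

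The whole Ms4a interval of chromosome 19 spanned 678.6 kb and 35 annotated genes, 19 of them Ms4a genes, and 15 genes were tested with LPS. Members other than Ms4a7 lay side by side near its end, interleaved with Ms4a4d and Gm8369, and these genes had log2 fold changes of 3.26 to 10.01. Among them, Ms4a4b, Ms4a4c and Ms4a4d passed the filter only through the LPS libraries, as above. Gm8369 had 3.42. Toward the other end of the interval AW112010, a long noncoding RNA, had 7.84 and Gm6501 had 1.77. BE692007 lies antisense to Ms4a6c with overlapping exons and had 4.62, close to the 4.76 of Ms4a6c. According to the methods the library kit was directional, but the counting strand is not stated, so counts of these partners cannot be told apart. Exons of Ms4a4c overlap those of Gm5692 and exons of Ms4a6b those of Gm19261, both under the filter. Of the 100-base windows of their transcripts, 1.66% for Ms4a4c, 0.473% for Ms4a4b, 0.513% for Ms4a6c and 0 for the other members also occurred in another gene, so the copies were largely distinct in sequence.

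**Figure D4:**
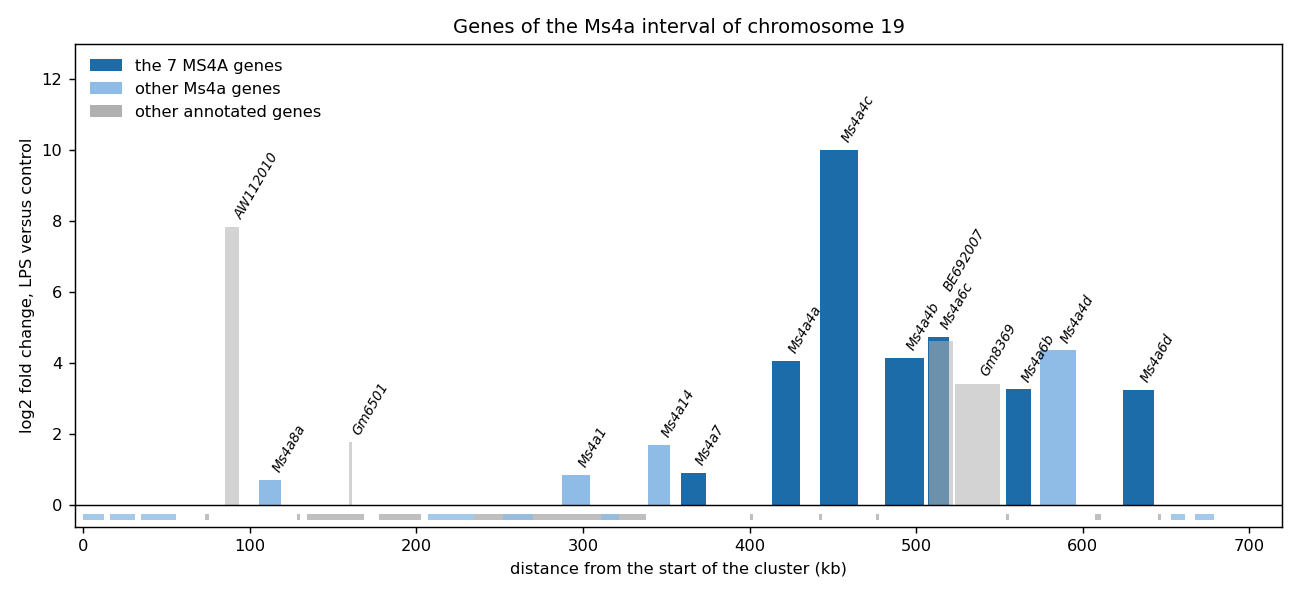
Genes of the Ms4a interval by distance from its start in kb (horizontal axis, bar width is the gene's length) and log2 fold change of LPS against control (vertical axis) for the 15 genes tested. Small blocks under 0 are genes in the table below the filter; Ms4a4c is the tallest bar at 10.01, AW112010 the next at 7.84, and Ms4a8a, Ms4a1 and Ms4a7 are under 1.

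Among 9 genes whose proteins are tied to MS4A proteins or signal beside them, 8 were tested with LPS, 3 were called higher and 3 lower. Of all 13023 genes tested, 4093 were called higher and 3946 lower, so these counts are a description. Nlrp3, the inflammasome sensor, rose by 5.86 (SE 0.24), the kinase Syk by 1.59 (SE 0.12) and the Fc receptor γ-chain gene Fcer1g by 1.24 (SE 0.17). Clec7a, which encodes dectin-1, was lower by -0.90 (SE 0.29, adjusted p = 0.0306, limma), from 8779, 10226 and 18909 to 5045, 7137 and 7289. The gene of its adaptor Card9 was lower by -1.06 (SE 0.12), and Trem2 by -1.02 (SE 0.13). Tyrobp (-0.30) and Vsig4 (0.26) were not called, though Tyrobp was lower with the block (adjusted p = 0.0394, limma), which pairs the number 1 libraries. The transcript of Ms4a4a and that of its partner Clec7a thus moved in opposite directions with LPS. With oxLDL against control and with oxLDL and LPS against LPS none of the 8 was called without the block, and with it Nlrp3 alone was, with LPS (-0.33, adjusted p = 0.0486, limma). The blocked fits called 4.71% and 13.2% of all genes in these comparisons.

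For reference, all 30 genes of an interferon response list were called higher with LPS, with a median of 6.82, and so were all 20 of an NF-κB list, with a median of 6.77. Of the members, Ms4a4c alone lay above these medians. With oxLDL and LPS against LPS, all 30 interferon genes had a negative difference (median -0.26, 5 called lower with the block and 0 without), and all 20 NF-κB genes did (median -0.70, 18 and 0). The medians over all genes and over the members were -0.01 and -0.16.

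The genes outside the family whose values followed each member most closely over the 12 libraries were taken from 10460 genes with a mean of at least 50. The libraries fall into those with and without LPS and the genes share each library, so high values are the rule and carry no test. Ms4a4c went with Gm4070 (Pearson r = 0.998), Ifit3 and Phf11b, and Ms4a6c with Parp14 (0.999) and Stat2. Ifit3 and Stat2 are interferon response genes, with LPS changes of 9.76 and 4.49 beside 10.01 and 4.76 of those members. Ms4a6d went with the scavenger receptor gene Scarf1 (0.999), Snx10 and Mitd1. Ms4a4a went with Tmem30a (0.986), Slc23a2 and Pdcd10, and Ms4a6b with Insl6 (0.983), the C-type lectin gene Clec4a1 and Zfp407. Ms4a4b went with Gopc (0.980), Eif4h and Llph, and Ms4a7 with 1110059E24Rik (0.976), Unc50 and Anapc10. With the mean of each replicate number subtracted, Gm4070 stayed first for Ms4a4c (0.999) and Scarf1 for Ms4a6d (0.999), whereas Ms4a4a went best with Fyb (0.996) and Ms4a6b with Hp (0.997).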

How the data were processed

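Poly(A) RNA of the 12 cultures was sequenced. The authors used Trimmomatic (0.32) for adaptors, STAR (2.5.1b) for alignment to the mouse assembly mm10 (GRCm38) and featureCounts for the exonic reads of GENCODE genes. The deposited signal behaves as such counts scaled by a factor of the library and rounded to whole numbers, called normalized count here, so count models were not used. The library kit was directional, and the strand setting of the counting is not given in the sources used here.

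Groups were taken from the labels. They were compared with limma (3.58.1, R 4.3.3, trended variance) on log2 of the normalized count plus 1, for genes that reached 10 in 3 or more of the 6 libraries of a comparison, and over 12 libraries for the interaction. A gene was called at an adjusted p under 0.1 (Benjamini-Hochberg, over all genes tested), and the fit was tested on simulated data. The labels number replicates 1 to 3. Deviations of same-numbered libraries from their group means had correlations of 0.33 to 0.733 over 11186 genes, and different numbers at most 0.071, so the numbers were taken to pair libraries, and the fit with the number as a block is given where it changes a call. According to the methods, the cells of an experiment were pooled and then split over the groups, and experiments were repeated independently. The sex transcripts of number 1 libraries differ between those with and without LPS. Members and gene lists were chosen with earlier results of these data known. Named are the members, the other Ms4a and Tmem176 genes, listed genes and, per member, the 3 genes most like it, and some genes that fall under this rule are left out of the text. Levels per kb use the exon union of GENCODE vM21, and promoter windows come from RefSeq (GRCm38.p6). Alternatives were the pseudocount, the filter, the scaling, the block, all 12 libraries in the fit, and libraries left out.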

Additional observations from a re-analysis of the deposited data

How the results depend on the processing

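The 7 members were called higher with LPS, without and with oxLDL, under each pseudocount, without a filter, with rescaling by the median ratio, with all 12 libraries in the fit and with the replicate block. With at least 10 required in every library 5 were tested and called. With equal totals 6 were called in LPS against control, Ms4a7 being the exception. Leaving out 1 library gave 6 to 7 called in LPS against control and 7 in oxLDL+LPS against oxLDL, and no member was called lower.

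The differences with oxLDL rested on the pairing. The replicate block called 1 member lower in oxLDL against control (Ms4a7) and 1 in oxLDL+LPS against LPS (Ms4a4c), against 0 without it, and raised the genes called from 0 to 601 and from 0 to 1682. Leaving whole numbers out was chosen after seeing the data. In blocked fits of this kind few libraries are left for a gene's own variance, so their p-values lean on the variance trend over all genes. In blocked fits the 1 call of Ms4a7 remained without number 3 and the 1 call of Ms4a4c without number 2. Blocked fits without number 1, 2 and 3 called 103, 63 and 1032 genes in oxLDL against control, and 0, 2755 and 0 in oxLDL+LPS against LPS (0, 38 and 0 unblocked). The interaction had 9 called genes in the blocked fit without number 2. With all numbers in, the replicate block changed no call of a member in the other comparisons, and without number 1 it called Ms4a7 higher in LPS against control, which the unblocked fit did not. For oxLDL+LPS against LPS, 29 genes were called with all 12 libraries in the fit, 91 without oxLDL+LPS replicate 2 and 0 without any other single library; the interaction had 6 called genes without oxLDL+LPS replicate 2. The cause was not tested.

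Differences that were not called changed sign. With 1 library left out, oxLDL against control ran from -0.66 to 0.40 for Ms4a6b and from -0.55 to 0.034 for Ms4a7. In oxLDL+LPS against LPS the range was -1.12 to 0.72 for Ms4a4a, -0.76 to 0.99 for Ms4a6b, -0.069 to 0.21 for Ms4a6d and -0.14 to 0.25 for Ms4a7. For the interaction it was -0.67 to 1.17 for Ms4a4a, -1.28 to 0.12 for Ms4a4b, -0.40 to 0.45 for Ms4a4c, -0.70 to 1.04 for Ms4a6b and -0.27 to 0.013 for Ms4a6d. Without number 1 in any group, with or without the replicate block, Ms4a6b had 0.018 for oxLDL against control and Ms4a4a -0.089 for the interaction. Without number 2, Ms4a6b had 0.019 for oxLDL against control, and the interaction was 0.37 for Ms4a4b and -0.71 for Ms4a4c. Without number 3, Ms4a4b had 0.014 for oxLDL+LPS against LPS. With a pseudocount of 8 the interaction of Ms4a4c was -0.26. In these fits no member was called.

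Ms4a4b and Ms4a4c had counts of at most 12 without LPS, with 3 pools per group. A decrease or a small increase of those genes with oxLDL alone was therefore not detectable at this depth. With oxLDL alone Ms4a4b was at 1 to 3 and Ms4a4c at 3 to 4, so no rise to the 10 of the filter was seen.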
